A study of Mus musculus with 6 samples.

Results

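Apolipoprotein L genes were followed across sorted mouse bone marrow populations, with Apol7c and its relatives Apol6, Apol8, Apol9b and Apol10b as the 5 named members. Members were chosen by family name, and Apol7c had been selected on its high signal in GM-BMDC, so its difference from the other populations is given as a description without a test. A member was read from a probe set annotated to that gene alone, which left 4 of the 5 members among 19938 genes, each with 1 such probe set. Apol9b was present on no single-gene probe set. It shared its probe sets with Apol9a, and their joint signal is described separately.

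The series holds 6 Affymetrix arrays, 2 in each of 3 populations. Marrow from C57BL/6J mice, all labelled male and aged 6 to 10 weeks, was cultured for 7 days. GM-BMDC, labelled dendritic cells, and GM-BMM, labelled macrophages, grew in 25 ng/ml GM-CSF and were sorted as MHCIIhighF4/80low and MHCIIlowF4/80high cells, respectively. M-BMM, also labelled macrophages, grew in 20% L cell conditioned medium, which supplies M-CSF, and were sorted for CD11b together with the antigen that Adgre1 encodes, the one read in the other gates. The labels name no genetic alteration and no further stimulus for any group. The labels call the arrays of a population biological replicates without naming animals or pools, and p-values here therefore cover only the spread among these arrays.

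Apolipoprotein L proteins are a family of amphipathic, membrane-associating proteins. The best known, human APOL1, inserts into membranes as an ion channel and kills trypanosomes. Several family genes respond to interferons. In mouse dendritic cells, APOL7C has been described as a protein that is recruited to phagosomes and opens their membrane during antigen cross-presentation. The mouse family lies largely in 1 cluster on chromosome 15 and includes recently duplicated genes with nearly the same sequence.

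The regulatory sequence next to the start sites shows how close some of these duplicates are. The lines below give the 150 bases before the annotated start, 5′ to 3′ along each gene, from the RefSeq promoter table on build GRCm38.p6. They belong to Apol7c (chr15:77533316-77533465, minus strand), Apol7e (chr15:77698739-77698888, plus strand), Apol7b (chr15:77447461-77447610, minus strand), Apol9b (chr15:77728922-77729071, plus strand) and Apol8 (chr15:77757011-77757160, minus strand). Apol7e and Apol7b are shown as the nearest copies of Apol7c, Apol9b as the member read only jointly, and Apol8 as the relative whose signal passed a test. Capitals mark matches to GAAANNGAAA, the core of the interferon-stimulated response element, read here on the opposite strand, and to TATATAA, a motif that many promoters hold shortly before the start.
Apol7c: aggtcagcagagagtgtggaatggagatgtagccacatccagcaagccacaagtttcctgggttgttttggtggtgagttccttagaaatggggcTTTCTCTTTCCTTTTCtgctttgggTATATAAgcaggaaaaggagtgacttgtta
Apol7e: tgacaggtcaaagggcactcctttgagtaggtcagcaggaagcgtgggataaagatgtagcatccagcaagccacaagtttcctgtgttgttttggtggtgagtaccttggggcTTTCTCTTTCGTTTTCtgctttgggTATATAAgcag
Apol7b: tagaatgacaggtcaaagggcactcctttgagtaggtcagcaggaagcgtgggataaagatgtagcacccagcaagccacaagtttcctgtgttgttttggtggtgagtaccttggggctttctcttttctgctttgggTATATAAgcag
Apol9b: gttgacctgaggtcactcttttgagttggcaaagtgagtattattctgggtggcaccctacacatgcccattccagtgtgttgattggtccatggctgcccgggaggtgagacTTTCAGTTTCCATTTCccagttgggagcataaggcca
Apol8: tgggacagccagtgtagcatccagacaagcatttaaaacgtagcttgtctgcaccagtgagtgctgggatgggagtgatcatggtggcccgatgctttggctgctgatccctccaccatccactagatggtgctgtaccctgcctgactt

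Windows of the 250 bases before the start were aligned, and identity was counted over the columns that both windows covered. The Apol7c window was 87.9% identical to that of Apol7e and 86.1% identical to that of Apol7b, over 231 columns each. The Apol7b and Apol7e windows were 97.6% identical to each other, and the Apol9a and Apol9b windows were 100% identical over 228 aligned columns. The median over all 55 pairs of the 11 family windows was 54.8%. Pairs covered 10 to 281 columns, so this median mixes unlike lengths. The Apol7b, Apol7c and Apol7e windows were far closer to each other than most pairs. GAAANNGAAA, searched on both strands, matched in 7 of 11 family windows, namely Apol7c, Apol7e, Apol9a, Apol9b, Apol10a, Apol11a and Apol11b, against 2.98% of 32851 windows of all genes. TATATAA, searched the same way, matched in 3 of 11, namely Apol7b, Apol7c and Apol7e, against 3.04% of all windows. In Apol7c there were 2 overlapping matches to GAAANNGAAA, from 55 to 46 and from 49 to 40 bases before the start, and the TATATAA match lay from 30 to 24 bases before it. TGANTCA, the AP-1 site, matched in 0 of 11 windows against 6.75% of all windows. GGGANNNNCC, a kappaB site, matched in the Apol8 and Apol10b windows, against 17.6% of all windows. TTCNNNGAA, the interferon gamma activated site, matched in 3 of 11 windows (Apol10a, Apol11a and Apol11b), against 7.02%. The motifs were chosen after the windows had been seen, a match describes letters only, and matches in nearly identical windows are not independent.

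Values are RMA signals on a log2 scale, so a difference of 1 is a doubling. A signal below 5.04, which is the 25th percentile over the whole table, is called low, since the table carries no detection call. Genes were compared with limma on all 6 arrays, and a gene was called at a Benjamini-Hochberg adjusted p under 0.05 over all genes. The sort markers followed the gates. Mean H2-Ab1, a class II gene, was 13.13, 10.68 and 6.08 in GM-BMDC, GM-BMM and M-BMM. Mean Adgre1, a macrophage gene, was 10.15, 12.46 and 12.76, and mean Itgam, which encodes CD11b, was 10.21, 11.79 and 11.85. GM-BMDC replicate 2 lay nearer to the macrophages than replicate 1 in Adgre1 (10.91 against 9.39) and Itgam (10.75 against 9.67). The male label was not borne out in 3 arrays. Xist, the female-specific RNA, was high in GM-BMDC replicates 1 and 2 (11.66 and 10.68) and GM-BMM replicate 1 (11.58), and read 4.53 to 4.93 in the other 3 arrays. Y-linked Eif2s3y was low in both GM-CSF arrays numbered 1 (3.94 in GM-BMDC, 3.66 in GM-BMM) and read 8.80 to 9.32 in the other 4, so GM-BMDC replicate 2 carried both signals. The GM-BMDC arrays thus differed from each other in Eif2s3y, and the GM-BMM arrays in both genes; for M-BMM nothing in these values tells biological from technical repeats. The effect of leaving out both GM-CSF arrays numbered 1, or GM-BMDC replicate 2, is given beside several of the members' results. No fit left out all 3.

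Apol7c was high in GM-BMDC and near the low end of the table in both macrophage populations. Its signal was 11.12 and 10.36 in the GM-BMDC arrays, 5.29 and 5.15 in the GM-BMM arrays and 5.11 and 4.60 in the M-BMM arrays. The populations followed the order GM-BMDC, GM-BMM, M-BMM with no overlap between arrays, but the step from GM-BMM to M-BMM was no larger than the gap between the M-BMM arrays. Means were 10.74 ± 0.53, 5.22 ± 0.09 and 4.85 ± 0.37 (SD, n = 2 each), the last of them low. GM-BMDC exceeded GM-BMM by 5.52 ± 0.26 (log2 difference ± SE), or 45.9-fold, and M-BMM by 5.89 ± 0.26, or 59.1-fold. Because the macrophage signals lie at or near the low level, these folds are set against a signal not shown to exceed background.

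Among the 19938 genes, the Apol7c difference had rank 1 from the top in GM-BMDC minus GM-BMM and rank 13 in GM-BMDC minus M-BMM. Each GM-BMDC array alone gave a large difference. With GM-BMDC replicate 1 left out the difference from GM-BMM was 5.14, and with replicate 2 left out it was 5.90. Leaving out both GM-CSF arrays numbered 1, which carried Xist without the Y-linked signal, gave 5.21 against GM-BMM and 5.51 against M-BMM. Between the macrophage populations, the comparison that the choice of Apol7c did not use, the difference was 0.37 ± 0.26 (95% interval -0.25 to 0.98), which was not called by limma (adjusted p = 0.545). In sorted bulk RNA, fewer cells with the transcript and less transcript per cell cannot be told apart.

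**Figure D1:**
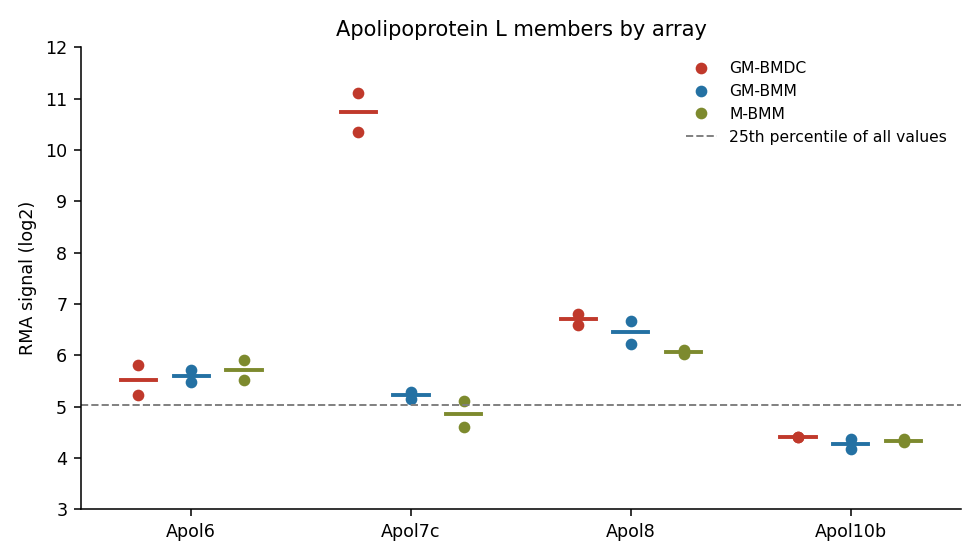
RMA signal (log2, vertical axis) of the 4 members with a single-gene probe set. Each point is 1 array, the short bar is the mean of 2 arrays and the dashed line is the 25th percentile of all values; Apol7c in GM-BMDC (11.12 and 10.36) stands above every other value shown.

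None of the 3 measured relatives was called between GM-BMDC and GM-BMM by limma, and at an unadjusted p under 0.05 the count was also 0. The background in that comparison was 10.4% of genes called, 4.69% higher and 5.74% lower in GM-BMDC. Against M-BMM 1 of 3 relatives, Apol8, was called, beside 16.7% of all genes (7.76% higher, 8.9% lower in GM-BMDC). Between GM-BMM and M-BMM 0 of 4 members were called by limma, with 1 at an unadjusted p under 0.05, beside 6.19% of all genes (3.62% higher, 2.57% lower in GM-BMM). Read against those shares, 1 of 3 and 0 of 3 relatives give no result about the family.

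Apol8, a family gene at the Myh9 end of the cluster, gave a moderate and graded signal. It read 6.80 and 6.60 in GM-BMDC, 6.23 and 6.67 in GM-BMM and 6.10 and 6.03 in M-BMM. The GM-BMDC and GM-BMM arrays overlapped, and both M-BMM arrays lay below the other 4. Means were 6.70 ± 0.15, 6.45 ± 0.31 and 6.07 ± 0.05 (SD, n = 2 each). GM-BMDC exceeded M-BMM by 0.64 ± 0.17 (1.55-fold, 95% interval 0.25 to 1.02, limma adjusted p = 0.0384). This call was fragile. It was lost when GM-BMDC replicate 1, GM-BMDC replicate 2, M-BMM replicate 1 or M-BMM replicate 2 was left out (limma adjusted p = 0.179, 0.06, 0.164 and 0.183), and it ended in 9 of 16 alternative settings, over which the adjusted p ranged from 0.0154 to 0.183. Those 9 included the fit that took the averaged signal of 3 Y-linked genes as a term, where the difference was larger, 0.73, but not called (limma adjusted p = 0.0657), while without both GM-CSF arrays numbered 1 the call stood (0.53, limma adjusted p = 0.0394).

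The other Apol8 differences were not called. GM-BMDC minus GM-BMM was 0.25 ± 0.17 (95% interval -0.14 to 0.63, limma adjusted p = 0.452), and its sign turned to -0.08 without both GM-CSF arrays numbered 1. GM-BMM minus M-BMM was 0.39 ± 0.17 (limma adjusted p = 0.258). Without both GM-CSF arrays numbered 1 that difference was 0.61 and was called (limma adjusted p = 0.039). With either GM-BMM array left out, the GM-BMM level still lay between the others, 0.03 or 0.47 under GM-BMDC and 0.61 or 0.17 above M-BMM.

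Apol6, whose human counterpart has been described as a BH3-only cell death protein, showed no ordered pattern. Its signal was 5.82 and 5.23 in GM-BMDC, 5.71 and 5.48 in GM-BMM and 5.51 and 5.91 in M-BMM. The arrays of all 3 populations overlapped, and the whole range over 6 arrays was 0.68. Means were 5.52 ± 0.42, 5.59 ± 0.16 and 5.71 ± 0.28 (SD, n = 2 each). The differences were -0.07 ± 0.22 for GM-BMDC minus GM-BMM (95% interval -0.59 to 0.44, limma adjusted p = 0.907), -0.19 ± 0.22 for GM-BMDC minus M-BMM (-0.71 to 0.33, adjusted p = 0.669) and -0.12 ± 0.22 for GM-BMM minus M-BMM (-0.63 to 0.40, adjusted p = 0.859). The intervals reach down to -0.71 and up to 0.44.

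Apol10b, which lies next to Apol7c in the cluster, was low throughout. It read 4.41 and 4.40 in GM-BMDC, 4.18 and 4.37 in GM-BMM and 4.31 and 4.36 in M-BMM. Every mean was low (4.40 ± 0.01, 4.28 ± 0.13 and 4.33 ± 0.03, SD, n = 2 each), and the range over all arrays was 0.23. Its differences of 0.13 ± 0.11, 0.07 ± 0.11 and -0.06 ± 0.11 were not called by limma (adjusted p = 0.599, 0.774 and 0.862, in the order used for Apol6). A signal this low may sit at background, where differences between cells would not show.

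The 4 other family genes with a single-gene probe set, which the member list did not name, gave no called difference in any comparison by limma. Apol7a read 3.76 to 4.04 over the 6 arrays and Apol10a read 4.24 to 4.94, both low in every population mean. Apol7d, annotated as a non-coding RNA and placed outside the cluster, read 5.58 to 5.92, and Apold1, an endothelial early-response gene that carries the family's domain, read 6.07 to 6.48. Over the 7 family genes other than Apol7c, the largest absolute difference in any comparison was the 0.64 of Apol8 and the next was 0.39, against 5.52 and 5.89 for Apol7c. The difference between Apol7c and its relatives was not tested, since Apol7c was chosen for its size.

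Of 14 family genes looked for, 8 had a single-gene probe set, 4 (Apol7b, Apol7e, Apol9a and Apol9b) were only on shared probe sets and 2 (Apol11a and Apol11b) were on none. The 4 shared probe sets, 2 for each pair, were read in a fit over all 35556 probe sets. There, 3.94% of probe sets were called in GM-BMDC minus GM-BMM, 7.84% in GM-BMDC minus M-BMM and 2.57% in GM-BMM minus M-BMM. A shared signal cannot be assigned to either gene of its pair.

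The pair Apol7b and Apol7e, the nearest copies of Apol7c in the promoter lines above, was modestly higher in GM-BMDC. Probe set 10425040 read 6.76 and 6.64 in GM-BMDC, 5.47 and 5.67 in GM-BMM and 5.49 and 5.57 in M-BMM. Probe set 10430179 read 6.44 and 6.35, then 5.36 and 5.63, then 5.50 and 5.56. On both probe sets the GM-BMDC arrays stood above all 4 macrophage arrays, which overlapped each other. The first gave 1.13 ± 0.12 (2.19-fold) against GM-BMM and 1.17 ± 0.12 (2.25-fold) against M-BMM by limma (adjusted p = 0.0137 and 0.00698). The second gave 0.90 ± 0.14 (1.87-fold) and 0.86 ± 0.14 (1.82-fold) by limma (adjusted p = 0.0288 and 0.0199). Neither was called between the macrophage populations (0.04 ± 0.12 and -0.04 ± 0.14, limma adjusted p = 0.923 and 0.94).

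These calls depended on which arrays entered the fit, while the differences kept their direction and most of their size. The M-BMM arrays do not enter the GM-BMDC minus GM-BMM difference, only its variance estimate and degrees of freedom. For 10425040 the call against GM-BMM stood in 9 of 14 settings and that against M-BMM in 11 of 14. Without GM-BMDC replicate 1 the first was 1.07 (limma adjusted p = 0.0823), and without either M-BMM array it was 1.13 (limma adjusted p = 0.0505). Without M-BMM replicate 1 or replicate 2 the second was 1.13 or 1.21 (limma adjusted p = 0.0666 and 0.0582), and without both GM-CSF arrays numbered 1 these comparisons gave 0.97 and 1.11 (limma adjusted p = 0.141 and 0.0627). For 10430179 the calls stood in 4 and 8 of 14 settings. Leaving out any single array ended its call against GM-BMM (limma adjusted p from 0.0608 to 0.144), and leaving out any GM-BMDC or M-BMM array ended that against M-BMM (limma adjusted p from 0.0658 to 0.128). Without both GM-CSF arrays numbered 1 its differences were 0.71 and 0.82 (limma adjusted p = 0.197 and 0.0996). Whether transcripts of Apol7c contribute to these probe sets was not tested.

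The pair Apol9a and Apol9b, known as interferon-induced genes, was highest in GM-BMM. Probe set 10425049 read 6.13 and 6.07 in GM-BMDC, 6.70 and 7.07 in GM-BMM and 5.91 and 6.08 in M-BMM. Probe set 10430174 read 5.84 and 5.91, then 6.48 and 6.73, then 5.80 and 5.96. Both GM-BMM arrays lay above the other 4 on each probe set, and GM-BMDC and M-BMM overlapped. GM-BMDC minus GM-BMM was -0.78 ± 0.16 on the first and -0.73 ± 0.14 on the second (limma adjusted p = 0.0605 and 0.0496), so that only the second was called. That call was lost without any single array (limma adjusted p from 0.0736 to 0.208), and without both GM-CSF arrays numbered 1 the difference was -0.82 (limma adjusted p = 0.189). GM-BMM minus M-BMM was 0.89 ± 0.16 and 0.72 ± 0.14 (limma adjusted p = 0.0556 and 0.0624), neither of them called. The pair thus differed from the pattern of Apol7c in the population that stood highest.

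**Figure D2:**
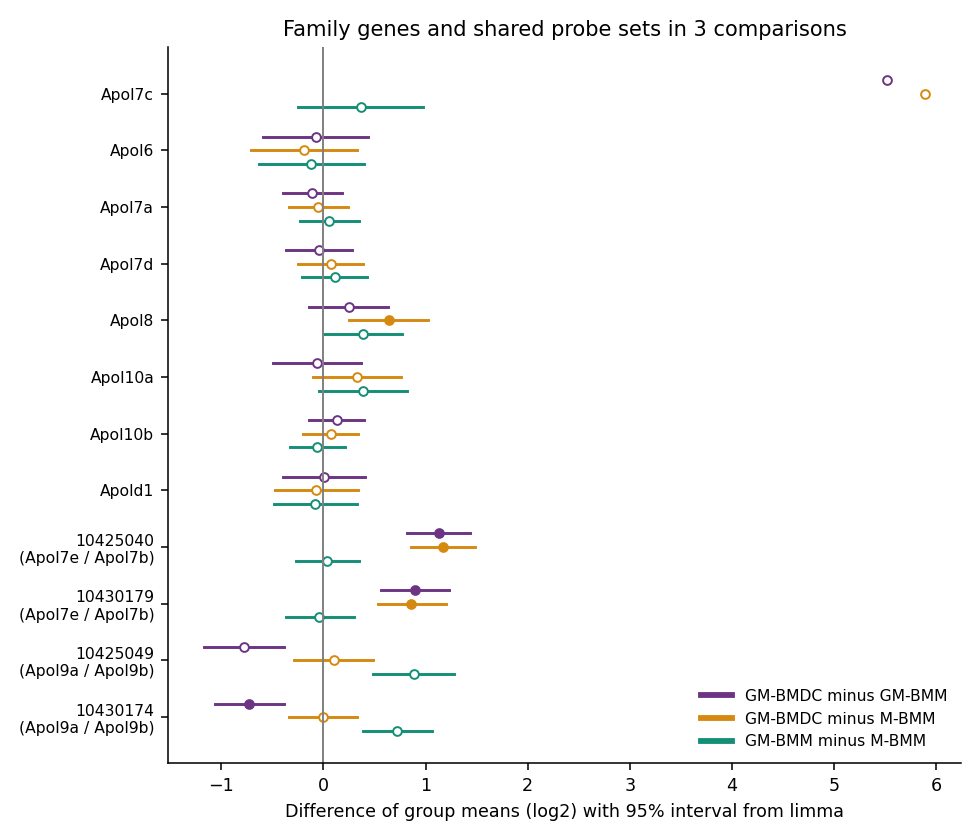
Difference of group means (log2, horizontal axis) of 8 family genes and 4 shared probe sets in 3 comparisons. Lines are 95% intervals from limma and filled points are called at an adjusted p under 0.05; Apol7c in the GM-BMDC comparisons was not tested and has no interval, and its 5.52 and 5.89 lie far from all others.

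The genes beside the family on chromosome 15 did not share the Apol7c difference. RefSeq places Apol7c between Apol11a and Apol10b, within a run of 12 family genes that Rbfox2, an RNA-binding splicing regulator, interrupts. Apol10b, its measured neighbour, differed by 0.13 and 0.07 from GM-BMM and M-BMM, and Apol10a by -0.06 and 0.33. Both were low in every population mean, where a difference may not show. Within the same run, the shared probe sets of Apol7b and Apol7e were 0.86 to 1.17 higher in GM-BMDC. Among 11 measured genes that are no family members (Rbfox2 and 5 on each side), differences in GM-BMDC ran from -0.78 to 0.46 against GM-BMM and from -0.22 to 1.03 against M-BMM. In each comparison 1 of the 11 was called by limma, beside 10.4%, 16.7% and 6.19% of all genes, which gives no result about these neighbours as a set. Rbfox2 was lower in GM-BMDC than in GM-BMM (-0.78 ± 0.14, limma adjusted p = 0.0142) and higher in GM-BMM than in M-BMM (0.93 ± 0.14, limma adjusted p = 0.00997). Foxred2 was higher in GM-BMDC than in M-BMM (1.03 ± 0.16, limma adjusted p = 0.00522).

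**Figure D3:**
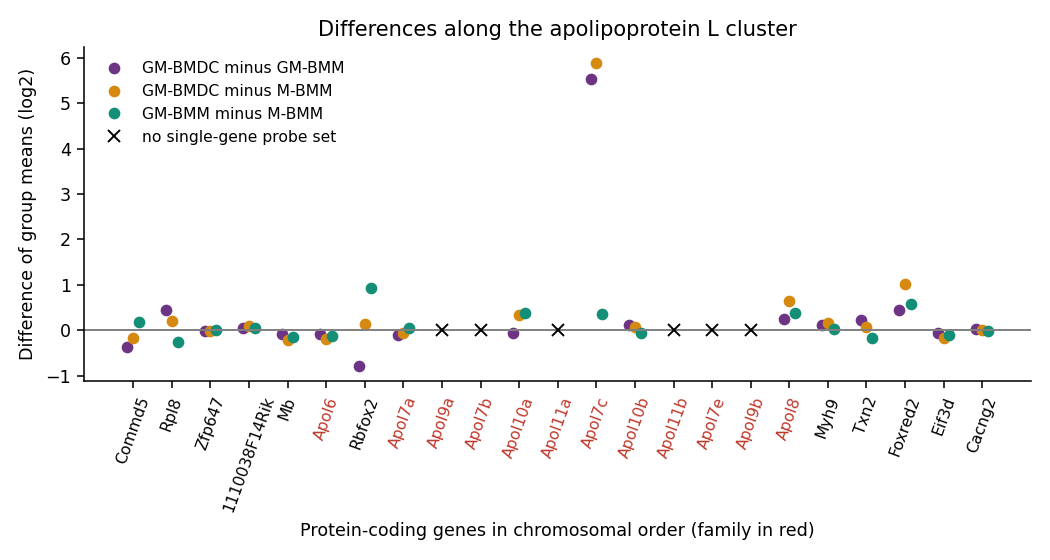
Difference of group means (log2, vertical axis) for genes in chromosomal order, with family names in red and crosses for genes without a single-gene probe set. Spacing is by order, not distance; Apol7c alone lies above 5 and the 11 measured genes that are no family members lie between -0.78 and 1.03.

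The genes whose profile over the 6 arrays was nearest to Apol7c were ranked by the root mean square difference of mean-centred signals. The 10 nearest ranged from 0.268 to 0.631 on that measure, with Pearson correlations of 0.98 to 0.996. Nr4a3, a nuclear receptor involved in dendritic cell migration, was nearest and read 11.57 and 10.85 in GM-BMDC, 5.70 and 5.73 in GM-BMM and 4.87 and 4.97 in M-BMM. Next came Sema6d, a semaphorin (11.16 and 10.95 in GM-BMDC, 5.74 to 6.20 in the other 4 arrays), and P2ry10, a lysophospholipid receptor (8.64 and 8.28, against 3.21 to 3.90). The others were Cldn1, a tight junction claudin, Fscn1, the actin-bundling fascin of mature dendritic cells, Mmp25, a membrane-anchored metalloproteinase, Ccr7, the chemokine receptor for lymph node homing, Strip2, H2-Eb2, a class II beta chain, and Serpinb6b, a serine protease inhibitor. All 10 were high in both GM-BMDC arrays, as their selection requires. With 6 arrays in 3 populations, many genes with 1 high population correlate. Ranking by Pearson correlation kept 1 of the 10, and ranking without both GM-CSF arrays numbered 1, over 4 arrays, kept 5 of 10.

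**Figure D4:**
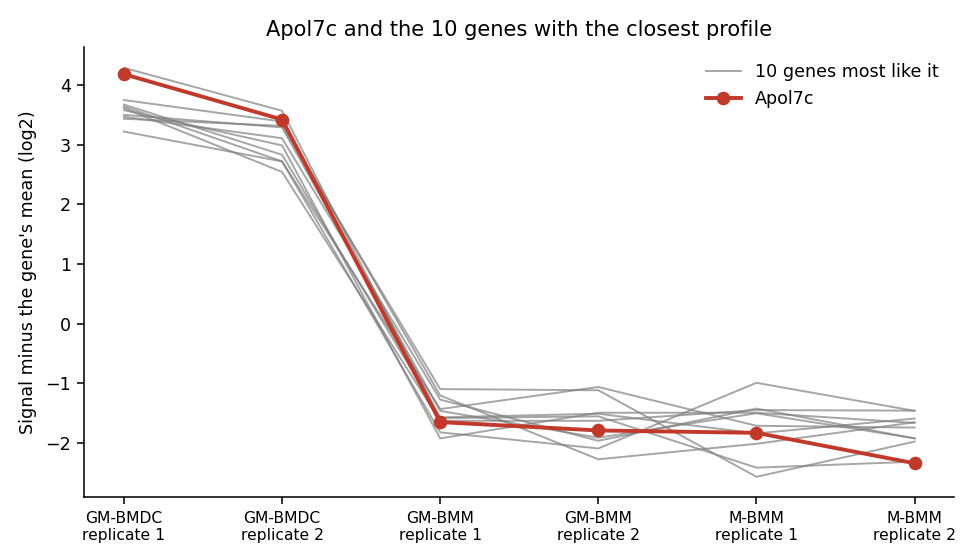
Signal minus the gene's own mean (log2, vertical axis) in each of the 6 arrays for Apol7c (red) and the 10 genes nearest to it (grey). Lines join arrays to guide the eye and carry no order. All 11 genes lie above their own mean in the GM-BMDC arrays and below it in the other 4.

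The relatives had other neighbours by the same measure. The nearest to Apol8 were Tnip2, an inhibitor of NF-kappaB signalling, Gtpbp1 and Plcd1, those to Apol6 were Dynap, Krt16 and Cplx3, and those to Apol10b were Krt28, Dlx5 and Kctd15. Their root mean square differences were small (0.0593 to 0.0702 for Apol8) because the profiles are nearly flat. At most 1 of 3 stayed under either other ranking, so these neighbours changed with the ranking used.

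Gene lists for the settings in which the family is known were set beside it. Of 28 measured genes of dendritic cell maturation and migration, 19 were higher and 0 lower in GM-BMDC than in GM-BMM by limma (median 1.37; 22 and 0 at an unadjusted p under 0.05), and 22 were higher and 0 lower than in M-BMM (median 2.05; 24 and 0 unadjusted). Without GM-BMDC replicate 1 there was 1 lower than in GM-BMM. The median over all genes was 0.016 and -0.002 in these comparisons. The higher shares were 67.9% and 78.6%, beside 4.69% and 7.76% of all genes. In GM-BMM minus M-BMM the list had 35.7% higher and 7.14% lower, beside 3.62% and 2.57%. Ccl22, a chemokine of mature dendritic cells, rose by 5.26 ± 0.35 over GM-BMM and 7.05 ± 0.35 over M-BMM. Fscn1 rose by 4.99 ± 0.22 and 4.87 ± 0.22, and Ccr7 by 4.48 ± 0.19 and 5.65 ± 0.19 (limma adjusted p at most 0.000257 for these 3 genes). Fscn1 and Ccr7 are also among the 10 genes nearest to Apol7c. Between the macrophage populations 10 of the 28 were higher and 2 lower in GM-BMM, and without M-BMM replicate 1 or 2 these fell to 2 or 3 higher and 0 lower.

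Type I interferon response genes went the other way from Apol7c. Of 26 measured, 20 were lower and 0 higher in GM-BMDC than in GM-BMM by limma (median -1.45; 24 and 0 at an unadjusted p under 0.05), and 18 were lower and 0 higher than in M-BMM (median -1.13; 19 and 1 unadjusted). Without GM-BMM replicate 2 there was 1 higher than in GM-BMM, and without either GM-BMM array 1 higher than in M-BMM. The count of 18 was 10 without M-BMM replicate 1 and 11 without M-BMM replicate 2. Ifit3, an antiviral interferon-induced gene, fell by 3.40 ± 0.44 on the log2 scale against GM-BMM, Irf7, a transcription factor of the pathway, fell by 3.09 ± 0.26, and Oas2, a sensor of double-stranded RNA, fell by 3.08 ± 0.22 (limma adjusted p = 0.00352, 0.000632 and 0.000363). The lower shares against GM-BMM and M-BMM were 76.9% and 69.2%, beside 5.74% and 8.9% of all genes. Apol7c was thus high in the population in which most of these genes were lower. The Apol9a and Apol9b probe sets, by contrast, were lower in GM-BMDC than in GM-BMM, one of them past the threshold. Against M-BMM they gave 0.10 ± 0.16 and -0.00 ± 0.14, neither called by limma (adjusted p = 0.785 and 0.99). In that comparison the pair did not follow the interferon list. Between GM-BMM and M-BMM 1 of 26 was higher and 0 lower by limma (6 and 1 unadjusted). The higher share was 3.85%, beside 3.62% of all genes, too near the background to be a result. Without both GM-CSF arrays numbered 1 the higher count was 12, without GM-BMM replicate 1 it was 5, and without either M-BMM array it was 0. The lower count was 2 without GM-BMM replicate 2.

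Interferon gamma response genes, the other interferon setting of the family, were called in both directions. Of 20 measured, 4 were higher and 4 lower in GM-BMDC than in GM-BMM by limma (median -0.16). That is 20% each way, beside 4.69% and 5.74% of all genes. Against M-BMM 5 were higher and 2 lower (median 0.38), or 25% and 10%, beside 7.76% and 8.9%. That lower share is too near the background to be a result. Ciita, the class II transactivator, whose targets include the class II genes of the sort gate, rose by 3.76 ± 0.20 over GM-BMM and 4.33 ± 0.20 over M-BMM (limma adjusted p = 9.78e-05 and 2.78e-05). Gbp5, a guanylate-binding protein, rose by 0.98 ± 0.23 and 1.90 ± 0.23 (limma adjusted p = 0.0352 and 0.0015). Iigp1, an immunity-related GTPase, fell by 1.79 ± 0.17 against GM-BMM and 1.96 ± 0.17 against M-BMM, and Cxcl10, a chemokine, fell by 1.79 ± 0.20 against GM-BMM (limma adjusted p = 0.000954, 0.000406 and 0.00209). The 4 higher against GM-BMM were 2 when GM-BMM replicate 2 or GM-BMDC replicate 1 was left out and 1 without GM-BMM replicate 1 or either M-BMM array, and the 4 lower were 2 without either M-BMM array. Against M-BMM the lower count was 1 without GM-BMDC replicate 1 or either M-BMM array.

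Genes of type 1 conventional dendritic cells, the cross-presenting subset, were called higher more often than lower in GM-BMDC. Of 14 measured, 4 were higher and 1 lower in GM-BMDC than in GM-BMM by limma (median 0.32). These are 28.6% and 7.14%, beside 4.69% and 5.74% of all genes. The lower share is too near the background to be a result. Against M-BMM 8 were higher and 2 lower (median 0.73), or 57.1% and 14.3%, beside 7.76% and 8.9%. Between the macrophage populations 3 were higher and 0 lower in GM-BMM by limma, or 21.4% higher, beside 3.62% of all genes. These were Naaa (2.90 ± 0.24), Clec9a (2.44 ± 0.23) and Id2 (0.75 ± 0.11). In GM-BMDC minus GM-BMM the same genes gave 0.39 ± 0.24, -0.51 ± 0.23 and 0.24 ± 0.11 and were not called. Batf3, a transcription factor of the subset, rose by 1.40 ± 0.18 over GM-BMM and Cd8a by 1.13 ± 0.22, while Tlr3, a receptor for double-stranded RNA, fell by 2.03 ± 0.32 (limma adjusted p = 0.00352, 0.0177 and 0.00775). The 4 higher were 1 without GM-BMM replicate 1 or either M-BMM array, and the 1 lower was 2 without GM-BMDC or GM-BMM replicate 2. Against M-BMM the 8 higher were 5 without M-BMM replicate 2, and the 2 lower were 1 without GM-BMDC replicate 1 or either GM-BMM array and 0 without either M-BMM array.

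Apolipoproteins outside the L family were called in small numbers, in both directions against M-BMM. Of 16 measured, 1 was higher and 0 lower in GM-BMDC than in GM-BMM by limma (median 0.13; 2 and 2 at an unadjusted p under 0.05, and 1 lower without GM-BMDC replicate 2), and 2 were higher and 1 lower than in M-BMM (median 0.17; 3 and 2 unadjusted). These are 6.25% higher against GM-BMM, beside 4.69% of all genes, and 12.5% higher and 6.25% lower against M-BMM, beside 7.76% and 8.9%, shares too near the background to be a result about the list. Clu, the secreted chaperone clusterin, rose by 1.24 ± 0.31 over GM-BMM (limma adjusted p = 0.0497) and 1.72 ± 0.31 over M-BMM (limma adjusted p = 0.00971). Its call against GM-BMM was lost when any array but GM-BMDC replicate 2 was left out. Apoa4, a lipoprotein component, rose by 0.45 ± 0.12 over M-BMM (limma adjusted p = 0.0452). Apoe, the lipid carrier of macrophages, fell by 2.55 ± 0.40 against M-BMM (limma adjusted p = 0.00499), and was -1.43 ± 0.40 against GM-BMM (limma adjusted p = 0.0679). Against M-BMM the higher count was 1 without either GM-BMDC array or M-BMM replicate 2 and 0 without M-BMM replicate 1. The lower count there was 2 without GM-BMDC replicate 2 or either GM-BMM array and 0 without either M-BMM array. Between the macrophage populations 0 of 16 were called by limma (1 lower at an unadjusted p under 0.05), and 1 was lower without either GM-BMDC array.

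Cross-presentation and phagosome genes, the setting in which APOL7C has been placed, were called in small numbers, in both directions. Of 28 measured, 1 was higher and 2 lower in GM-BMDC than in GM-BMM by limma (median -0.20; 1 and 8 at an unadjusted p under 0.05), and 4 were higher and 3 lower than in M-BMM (median 0.02; 5 and 6 unadjusted). The called shares were 3.57% higher and 7.14% lower against GM-BMM, beside 4.69% and 5.74% of all genes. Against M-BMM they were 14.3% higher and 10.7% lower, beside 7.76% and 8.9%. Those against GM-BMM and the lower share against M-BMM are too near the background to be a result about the list. Ncf4 and Cybb, subunits of the phagocyte NADPH oxidase, fell by 1.29 ± 0.15 and 0.87 ± 0.18 against GM-BMM, and Rab43, a small GTPase of cross-presenting dendritic cells, rose by 0.51 ± 0.12 (limma adjusted p = 0.00221, 0.0259 and 0.0373). The call of Rab43 stood without GM-BMM replicate 2 but not without any other single array, and the lower count was 1 without GM-BMDC replicate 1 or either M-BMM array. Against M-BMM, Atp6v0d2, a subunit of the proton pump, rose by 4.07 ± 0.38 and Clec9a, a receptor for dead cells, by 1.94 ± 0.23, while Derl1, of the machinery that moves proteins out of the endoplasmic reticulum, fell by 0.94 ± 0.12 (limma adjusted p = 0.000542, 0.00136 and 0.00187). Against GM-BMM, Atp6v0d2 and Clec9a gave -0.33 ± 0.38 and -0.51 ± 0.23 and were not called (limma adjusted p = 0.705 and 0.238). Without GM-BMDC replicate 1 or either M-BMM array, the counts against M-BMM were 2 higher and 1 lower.

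Other genes for pore-forming and membrane-damaging proteins were called lower in GM-BMDC against GM-BMM and in both directions against M-BMM. Of 17 measured, 0 were higher and 4 lower in GM-BMDC than in GM-BMM by limma (median 0.02; 0 and 5 at an unadjusted p under 0.05), and 1 was higher and 2 lower than in M-BMM (median -0.01; 2 and 2 unadjusted). The lower share was 23.5% against GM-BMM, beside 5.74% of all genes. Against M-BMM the lower share was 11.8% beside 8.9%, and the higher share was 5.88% beside 7.76%. These shares against M-BMM are too near the background to be a result. Mlkl, the effector of necroptosis, fell by 1.66 ± 0.13 against GM-BMM, Tmem63a, a mechanosensitive channel, by 0.91 ± 0.12 and Gsdme, a gasdermin, by 0.72 ± 0.16 (limma adjusted p = 0.000484, 0.00352 and 0.0307). Without GM-BMDC replicate 1 the count of 4 was 2. Between the macrophage populations 4 genes of the list were higher and 0 lower in GM-BMM by limma, or 23.5% higher, beside 3.62% of all genes. Among these were Mlkl (0.93 ± 0.13), Tmem63a (0.73 ± 0.12) and Gsdme (0.71 ± 0.16). In GM-BMDC minus M-BMM, Tmem63a and Gsdme gave -0.18 ± 0.12 and -0.01 ± 0.16 and were not called. Against M-BMM, Ninj1, a mediator of plasma membrane rupture, fell by 0.94 ± 0.12 and Mlkl by 0.73 ± 0.13, and Bak1, which permeabilises the mitochondrial outer membrane, rose by 0.64 ± 0.11 (limma adjusted p = 0.00234, 0.00877 and 0.00729). That lower count was 1 without GM-BMDC replicate 1 or either M-BMM array, and the higher count was 2 without either GM-BMM array and 0 without either M-BMM array.

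Of 18 membrane repair genes, 0 were called between GM-BMDC and GM-BMM by limma (3 higher and 3 lower at an unadjusted p under 0.05), and 1 was lower without GM-BMDC replicate 2. Of all genes, 4.69% were higher and 5.74% lower in that comparison. Against M-BMM 3 were higher and 1 lower, or 16.7% and 5.56%, beside 7.76% and 8.9% of all genes. Anxa1, an annexin, rose by 2.53 ± 0.20 and Anxa7 by 0.70 ± 0.12, and Anxa6 fell by 1.21 ± 0.18 (limma adjusted p = 0.000273, 0.0068 and 0.00389). The higher count was 1 without M-BMM replicate 2, and the lower count was 2 without GM-BMDC replicate 2 and 0 without M-BMM replicate 1.

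**Figure D5:**
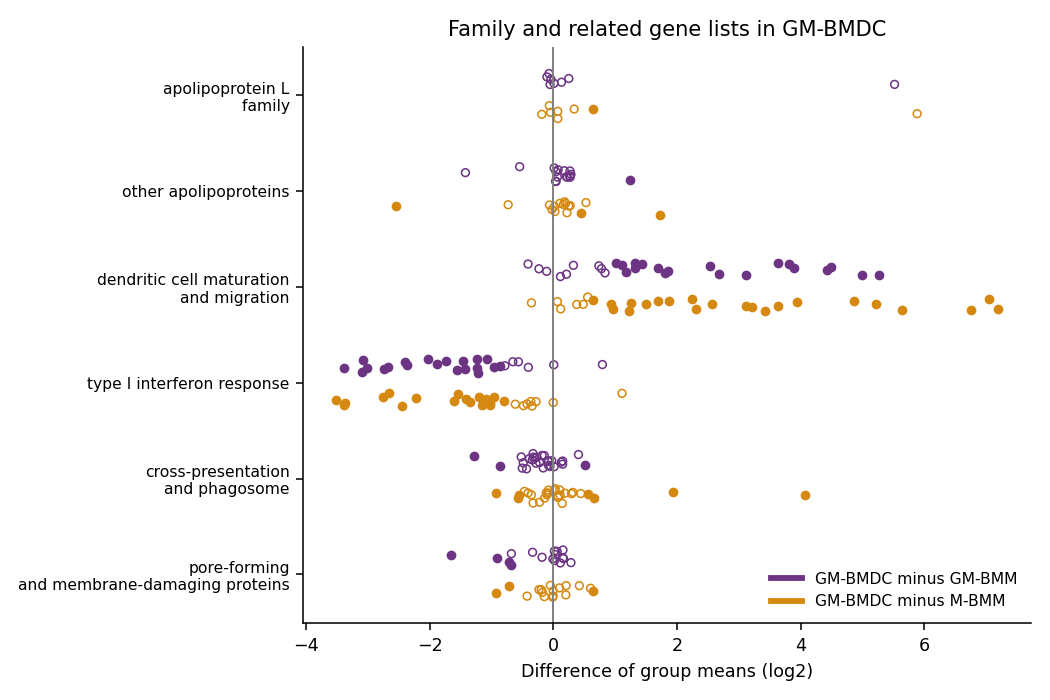
Difference of group means (log2, horizontal axis) for each measured gene of 6 lists, GM-BMDC against GM-BMM and against M-BMM. Filled points are called by limma and open points are not, Apol7c (5.52 and 5.89) being drawn unfilled because it was not tested; maturation genes lie mostly to the right and type I interferon genes mostly to the left.

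Markers of other cells were read beside Apol7c. Of all genes, 4.69% were called higher and 5.74% lower in GM-BMDC than in GM-BMM, and 7.76% and 8.9% than in M-BMM. Near those shares lie the lower B cell markers (11.1%) and the fibroblast and endothelial markers (10% each way), both against M-BMM. All 10 dendritic cell markers, which include class II genes of the sort gate, were higher in GM-BMDC than in either macrophage population, with summed log2 signals of 106.6 to 108.4 in GM-BMDC, 82.3 to 85.6 in GM-BMM and 61.6 to 63.0 in M-BMM. Of 9 macrophage markers, which include Adgre1 and Itgam of the gates, 7 were lower than in GM-BMM and 5 lower than in M-BMM, with sums of 82.0 to 90.5, 100.6 to 102.6 and 99.1 to 99.6. The first count was 4 without GM-BMM replicate 2 or either M-BMM array, and the second was 3 and 8 without GM-BMDC replicate 1 and 2 and 1 without either M-BMM array. Of 9 B cell markers, 3 were higher in GM-BMDC than in GM-BMM (Cd79a by 2.45 ± 0.30, Ms4a1 by 1.72 ± 0.24 and Ebf1 by 1.14 ± 0.25), and 2 were higher and 1 lower than in M-BMM (Cd79b by -2.28 ± 0.33). The higher counts were 5 and 4 without GM-BMDC replicate 2, and the latter was 1 without M-BMM replicate 1. Their sums were 57.0 to 61.9 in GM-BMDC, 53.0 to 54.5 in GM-BMM and 56.8 to 57.7 in M-BMM, and no B cell marker mean was low in GM-BMDC. Of 10 fibroblast and endothelial markers, 0 were higher and 2 lower in GM-BMDC than in GM-BMM by limma (0 and 4 at an unadjusted p under 0.05; Dcn by -1.67 ± 0.23 and Pecam1 by -1.08 ± 0.13), with sums of 59.6 to 60.6 in GM-BMDC, 63.3 to 64.0 in GM-BMM and 63.1 to 63.2 in M-BMM. Against M-BMM 1 was higher (Kdr by 0.87 ± 0.22) and 1 lower (Pecam1 by -2.64 ± 0.13). The higher count there was 0 without GM-BMDC replicate 1 or either M-BMM array, and the lower count was 2 without either GM-BMM array. Among 10 neutrophil, 10 mast cell and basophil, 8 T and NK cell and 6 erythroid markers, limma called 1 in the GM-BMDC comparisons, Gata2 of the mast cell list (0.55 ± 0.13 over M-BMM, adjusted p = 0.0262). That call was lost without any GM-BMDC or M-BMM array, and without GM-BMM replicate 2 there were 4 neutrophil and 1 mast cell marker lower in GM-BMDC than in GM-BMM. Without GM-BMM replicate 1, 1 mast cell marker was higher there. Unadjusted p-values under 0.05 numbered 2 higher and 2 lower (neutrophil), 1 and 1 (mast cell), 1 and 0 (T and NK) and 0 and 0 (erythroid) against GM-BMM. The part of these markers' cells in the Apol7c signal was not tested.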

How the data were processed

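RNA of each sample was hybridised to 1 array from 300 ng of total RNA. The deposited values are log2 signals that the authors made with Affymetrix Expression Console 1.1 and RMA, per the submitters' processing notes; RMA corrects background, equalises the arrays' distributions and summarises probes. The table held 35556 probe sets with no missing value and array medians of 6.18 to 6.28. The annotation named 1 gene for 21789 probe sets, several for 1621 and none for 12146, and no build. For a gene with several probe sets, the one with the highest mean was kept. limma 3.58.1 (R 4.3.3) was fitted to all 6 arrays with default moderation, two-sided, with 3 residual and 4.34 prior degrees of freedom and no filter on low values. The fit was tested on simulated data. Arrays carry no read depth, and 2 per population limit the precision (median SE 0.132).

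The members and lists were chosen with earlier results of these data known. Named genes were all members and measured family genes, the 10 genes most like Apol7c and 3 most like each relative, up to 3 called genes with the largest difference per list, cluster neighbours, gate genes, Xist and Eif2s3y. The plan expected tests of 4 relatives, of which 3 had a single-gene probe set. Tables were made in pandas 2.3.3 with NumPy 2.4.6 under Python 3.11.15, and figures in matplotlib 3.10.9. Alternatives left out arrays, added the replicate number or Y-linked genes as a term, and changed the groups fitted, the variance model, the filter, the centring, how a gene's probe sets were combined and whether unnamed probe sets entered.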

Additional observations from a re-analysis of the deposited data

How the results depend on the processing

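No called difference of a member or shared probe set changed direction in the alternatives run, 16 for the members with 15 set with the plan and 1 added after seeing the data; the added one was a replicate block with the numbers of M-BMM crossed. The Apol7c differences ranged from 5.14 to 5.90 (GM-BMDC minus GM-BMM), 5.51 to 6.26 (GM-BMDC minus M-BMM) and 0.11 to 0.62 (GM-BMM minus M-BMM, limma adjusted p from 0.323 to 0.937). Apol6 and Apol10b were called in none of them, and Apol10b gave no value when low genes were left out. The count of relatives called in GM-BMDC minus M-BMM was 1, Apol8. It was 0 to 1 with single arrays left out, and 0 with the replicate block, with the crossed block, with the Y-linked covariate, with arrays centred on their medians and over all probe sets. Members called in GM-BMM minus M-BMM rose from 0 to 1, Apol8, without both GM-CSF arrays numbered 1.

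Genes called in GM-BMDC minus GM-BMM (2079) numbered 1102 to 2055 with single arrays left out, the lowest without GM-BMDC replicate 1, and 1207 in a fit of only the groups compared. Those in GM-BMDC minus M-BMM (3323) numbered 1288 to 3412, the lowest without M-BMM replicate 1, and 2114 with the Y-linked covariate. Those in GM-BMM minus M-BMM (1235) numbered 319 to 1347, the lowest without M-BMM replicate 2. Leaving out an array of the population not compared leaves each difference unchanged and alters only the variance estimate and its degrees of freedom. The cause of the other shifts was not tested. The differences between replicates 1 and 2 correlated little between populations (0.024, -0.132 and 0.026 over 19938 genes). With 1 such difference per population, this cannot tell whether arrays with the same number share a culture or donor. Both GM-CSF arrays numbered 1 had high Xist (11.66 and 11.58) and low Eif2s3y (3.94 and 3.66). Whether the numbers pair the samples is therefore not known. The replicate block gave 1963, 3060 and 1176 genes called, and the crossed block 2002, 3155 and 1121. The ranking of genes nearest to each relative of Apol7c kept 0 to 1 of 3 under Pearson correlation and 0 without both GM-CSF arrays numbered 1. With 2 arrays per population, low signals such as Apol10b's cannot be told from background.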
